A study of Arabidopsis thaliana with 4 samples.

Results

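The glutathione S-transferase family of Arabidopsis thaliana was followed in callus grown from hypocotyls, in libraries labelled wild type and in libraries labelled plt1 plt2. Members were taken by locus code: 28 tau (GSTU1 to GSTU28), 13 phi (GSTF2 to GSTF14), 2 zeta, 3 theta and 3 lambda genes, 49 in all. Of these, 44 were among the 23922 loci of the count table, and 39 were among the 19325 loci that held enough reads to be tested. GSTU14 (AT1G27140), GSTU15 (AT1G59670), GSTU21 (AT1G78360), GSTF11 (AT3G03190) and GSTF13 (AT3G62760) had no row, so they were not analysed here.

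RNA-seq was run on 4 libraries, 2 labelled as wild type of accession Col-0 and 2 labelled as a double mutant of PLT1 and PLT2, AP2-type transcription factors best known from the stem cell niche of the root. The alleles are not given in the sources used here. All plants were raised for 9 days in the dark, and their hypocotyl pieces were then kept under continuous light on callus induction medium, which held 11 µM of the synthetic auxin 2,4-D and 0.2 µM of the cytokinin kinetin, for about 6 days. Each RNA sample pooled about 100 calli. Separate cultures are not stated for the replicates of a genotype, and the spread that p-values rest on here may therefore be technical.

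Glutathione transferases join the tripeptide glutathione to reactive molecules, which are then moved into the vacuole and broken down. The tau and phi classes are the large plant classes, with a catalytic serine, and include enzymes that detoxify herbicides and others that carry or modify the plant's own metabolites. Zeta enzymes isomerise maleylacetoacetate in tyrosine breakdown, theta enzymes act mainly as glutathione peroxidases, and lambda enzymes have a catalytic cysteine and release glutathione from its conjugates. Several tau and phi genes are known as auxin-inducible or stress-inducible genes.

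The libraries held 53907649 to 63209401 counted reads, at which 3 reads in a library correspond to 0.0473 to 0.0549 CPM. CPM is the count of a gene scaled to a fixed library total. The targeted genes were examined first. PLT1 was at 171 and 166 CPM under the wild type label and at 122 and 128 CPM under the plt1 plt2 label (1.35-fold lower, edgeR adjusted p = 0.000181). PLT2 was at 63.1 and 62.1 CPM against 182 and 179 CPM (2.88-fold higher, edgeR adjusted p = 3.37e-08). The PLT2 counts go against a loss of its transcript and do not settle the genotype, so each library is called by its label throughout.

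Of the 39 tested members, 16 (41%) differed between the labels at an adjusted p below 0.05 in edgeR's quasi-likelihood test, against 10.5% of all genes tested. They divided into 5 that were higher in the libraries labelled plt1 plt2, where 4.63% of all genes were, and 11 that were lower, where 5.86% of all genes were. The log2 fold change of plt1 plt2 over wild type ran from -1.36 for GSTF9 to 0.62 for GSTU11, with a median of -0.09 over the 39 members and of -0.001 over all genes. Every difference but those of GSTF9 and GSTU16 was under 2-fold. A mean of 50 or more reads was reached by 34 tested members, and 16 of those 34 (47.1%) were called, where 11.1% of all genes at that level were. The levels of the 2 labels did not overlap for 24 members, or 7 with plt1 plt2 above and 17 with wild type above, and did not overlap for 54.7% of all genes. When the difference itself had to exceed 1.5-fold (edgeR's glmTreat), GSTF9 was the only member called, where 1.02% of all genes were. In bulk tissue, fewer cells of a type and less RNA per cell cannot be told apart in any of these values.

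**Figure D1:**
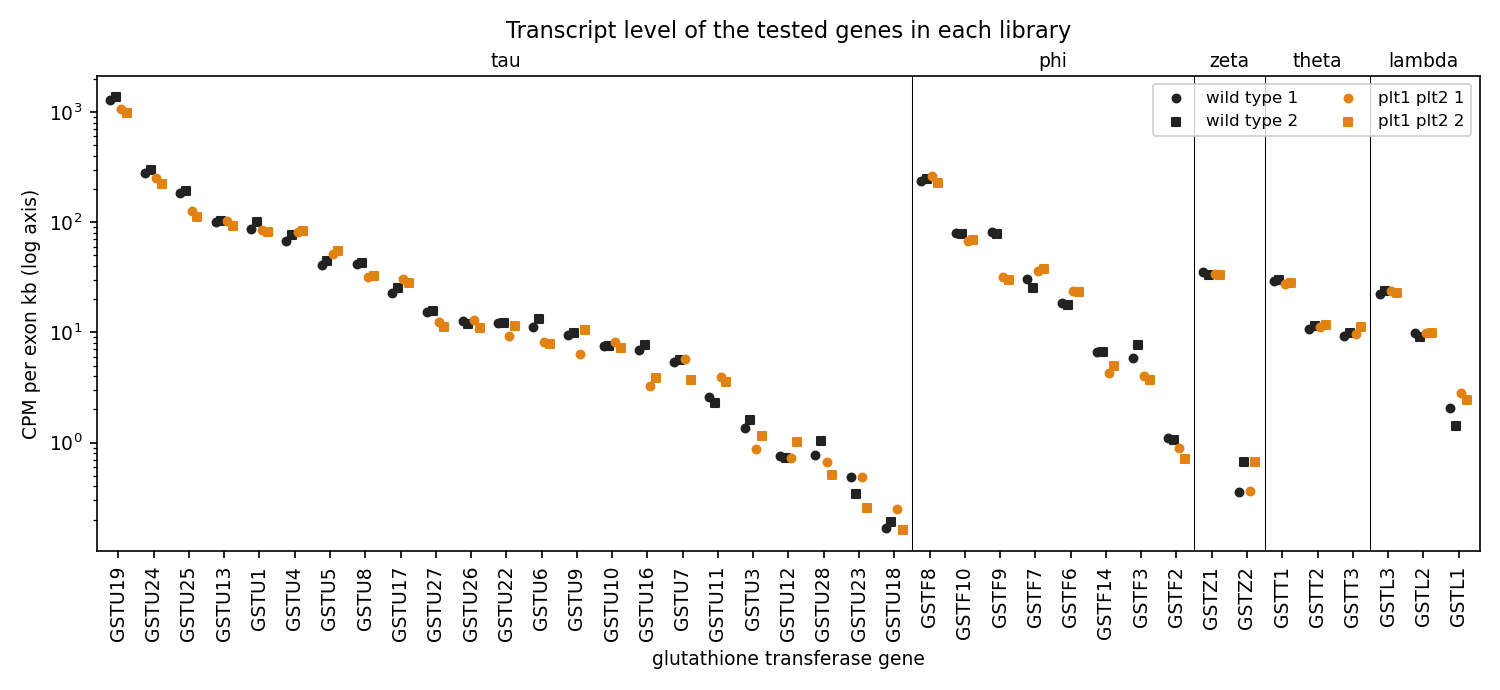
CPM per kb of exon, on a log axis, of the 39 tested members in each of the 4 libraries, ordered by class and by falling level. GSTU19 stands above all other members in every library, and the 2 libraries of a label lie close together for most members.

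Summed over its 44 rows, the family was at 3512 and 3670.2 CPM under the wild type label and at 3181 and 2914 CPM under the plt1 plt2 label. The tau class took most of these reads, with 2498 and 2646 CPM against 2177 and 1999 CPM. The phi class summed to 838 and 848 CPM against 828 and 737 CPM. These sums were higher in both libraries labelled wild type than in either labelled plt1 plt2. In means, the phi class fell from 842.8 to 782.5 CPM and its member GSTF9 alone from 98.3 to 38.2 CPM, falls of similar size. The order of the phi sums is therefore not shown to hold without GSTF9. Zeta genes summed to 56.2 and 53.6 CPM against 53.9 and 53.2 CPM, and theta genes to 80.6 and 83.6 CPM against 80.2 and 85.3 CPM, so both of these classes overlapped between the labels. Lambda genes summed to 39.5 and 39.3 CPM against 41.8 and 40.2 CPM, slightly higher in the libraries labelled plt1 plt2.

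In the tau class, 23 of 28 genes were tested, 3 were called higher and 7 lower, and the median log2 fold change was -0.21. In the phi class, 8 of 13 were tested, 2 were called higher and 4 lower, and the median was -0.32. None of the 8 zeta, theta and lambda genes was called in edgeR with its filter on low counts or in DESeq2, with a median of 0.03 and a range from -0.09 to 0.60, and 1 of them (GSTL1) had an unadjusted edgeR p below 0.05. Of all genes tested, 4.63% were called higher and 5.86% lower, and whether the classes differ from each other was not tested.

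**Figure D2:**
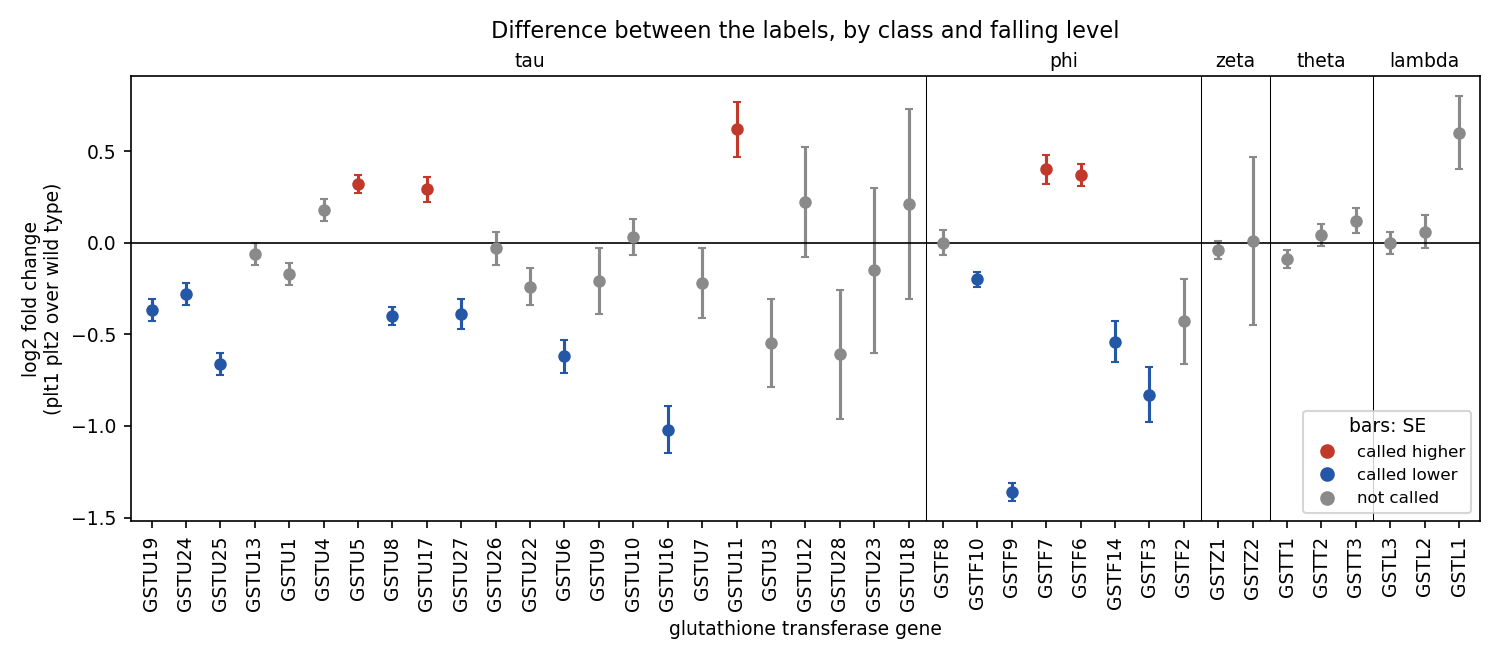
Log2 fold change of plt1 plt2 over wild type with its standard error (SE) for the 39 tested members, by class and falling level, with the adjusted p threshold of 0.05 setting the colours. Called members lie on both sides of 0 in the tau and phi classes, and no zeta, theta or lambda gene was called.

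GSTU19 (AT1G78380; TAIR10.1 chromosome 1, 29486387 to 29488007, minus strand, 2 exons), known as an abundant enzyme with high activity toward model xenobiotics, was the most abundant member. Its level was 1438 and 1521 CPM under the wild type label and 1199 and 1086 CPM under the plt1 plt2 label. This was 1.29-fold lower, without overlap (log2 fold change -0.37 ± 0.06 (SE), n = 2 per label, edgeR adjusted p = 0.00174). It took 40.9% and 41.4% of the family's reads under the wild type label and 37.7% and 37.3% under the plt1 plt2 label. Without GSTU19 the other 43 rows summed to 2074 and 2149 CPM against 1982 and 1828 CPM, and the order of the labels held.

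GSTU24 (AT1G17170) and GSTU25 (AT1G17180), neighbours known for conjugating the explosive TNT, followed GSTU19 in level per kb of exon among the tau genes. GSTU25 was at 185 and 195 CPM against 129 and 113 CPM, 1.58-fold lower (log2 fold change -0.66 ± 0.06, edgeR adjusted p = 8.59e-05). GSTU24 was at 339 and 355 CPM against 303 and 269.7 CPM, 1.21-fold lower (-0.28 ± 0.06, edgeR adjusted p = 0.0115, and 0.105 without the library wild type 2). Levels of both genes were lower in each library labelled plt1 plt2 than in either labelled wild type. Per kb of exon, GSTU25 stood at 0.646 and 0.650 of the level of GSTU24 under the wild type label and at 0.502 and 0.494 under the plt1 plt2 label.

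GSTU16 (AT1G59700; TAIR10.1 chromosome 1, 21936278 to 21938001, plus strand, 2 exons) showed the largest tau difference. Its levels were 7.73 and 8.60 CPM under the wild type label and 3.69 and 4.36 CPM under the plt1 plt2 label, about 2.03-fold lower (-1.02 ± 0.13, edgeR adjusted p = 0.000476). Against a fold of 1.5, the glmTreat adjusted p was 0.0528. GSTU6 (AT2G29440) was at 15.0 and 17.7 CPM against 10.8 and 10.4 CPM (-0.62 ± 0.09, edgeR adjusted p = 0.00161). Its exons share 398 bases with a locus on the other strand, and no source used here says whether counting used strand. GSTU8 (AT3G09270) was at 57.3 and 58.1 CPM against 43.6 and 44.1 CPM (-0.40 ± 0.05, edgeR adjusted p = 0.000311). Both were lower in each library labelled plt1 plt2, and for GSTU8, 16.2% of the exon bases match another place in the genome (at least 50 bases at 95% identity or more), so that some of its reads could have been placed elsewhere. GSTU27 (AT3G43800) was at 16.0 and 16.4 CPM against 12.9 and 11.8 CPM (-0.39 ± 0.08, edgeR adjusted p = 0.00837, and 0.0644 without wild type 2).

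The tau genes that were higher under the plt1 plt2 label were GSTU5, GSTU11 and GSTU17. GSTU5 (AT2G29450), an auxin-inducible gene, was at 52.3 and 56.1 CPM under the wild type label and at 65.9 and 69.3 CPM under the plt1 plt2 label, without overlap (0.32 ± 0.05, edgeR adjusted p = 0.00311). GSTU17 (AT1G10370), also named ERD9 and linked to drought and light responses, was at 26.7 and 29.1 CPM against 35.7 and 32.5 CPM (0.29 ± 0.07, edgeR adjusted p = 0.0177, and 0.131 without wild type 1). Its level was higher in both libraries labelled plt1 plt2, and its exons overlap those of GSTU18 by 71 bases on the same strand. GSTU11 (AT1G69930), a low-abundance gene, was at 2.82 and 2.46 CPM against 4.27 and 3.85 CPM (0.62 ± 0.15, edgeR adjusted p = 0.0279). That call did not hold in DESeq2 (adjusted p = 0.0708), or in edgeR without wild type 1 (0.0744) or without wild type 2 (0.191).

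Of the 13 tested tau genes that were not called, GSTU13 (AT1G27130), known from indole glucosinolate breakdown in pathogen defence, and GSTU1 (AT2G29490) had the highest levels per kb of exon. GSTU13 was at 129 and 133 CPM against 133 and 118 CPM, with overlap (-0.06 ± 0.06, edgeR adjusted p = 0.546). GSTU1 was at 96.5 and 110.0 CPM against 93.9 and 90.2 CPM (-0.17 ± 0.06, edgeR adjusted p = 0.123). Its adjusted p was 0.0323 without wild type 1 and 0.0145 without plt1 plt2 1. GSTU4 (AT2G29460) was at 79.7 and 89.6 CPM against 95.4 and 97.0 CPM (0.18 ± 0.06, edgeR adjusted p = 0.0689), and without a filter on low counts its adjusted p was 0.0291. Leaving out wild type 2, plt1 plt2 1 or plt1 plt2 2 also brought GSTU4 below the threshold (0.0230, 0.0165 and 0.0482).

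For 3 further tau genes the call depended on a single library labelled plt1 plt2. GSTU7 (AT2G29420) was at 4.79 and 5.01 CPM against 5.11 and 3.28 CPM (-0.22 ± 0.19, edgeR adjusted p = 0.527, and 0.00869 without plt1 plt2 1). GSTU9 (AT5G62480) was at 9.70 and 10.3 CPM against 6.54 and 10.8 CPM (-0.21 ± 0.18, edgeR adjusted p = 0.512, and 1.02e-05 without plt1 plt2 2). GSTU22 (AT1G78340) was at 12.9 CPM in both wild type libraries and at 9.86 and 12.1 CPM in those labelled plt1 plt2 (-0.24 ± 0.10, edgeR adjusted p = 0.167, and 0.00306 without plt1 plt2 2). GSTU7, of which 559 exon bases lie opposite a locus with no row, and GSTU9 overlapped between the labels, whereas both values of GSTU22 were lower under the plt1 plt2 label. The other tau genes not called were GSTU3 (AT2G29470), GSTU10 (AT1G74590), GSTU12 (AT1G69920), GSTU18 (AT1G10360), GSTU23 (AT1G78320), GSTU26 (AT1G17190) and GSTU28 (AT1G53680), with log2 fold changes from -0.61 for GSTU28 to 0.22 for GSTU12.

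A pair of tau genes had too few reads to be tested. GSTU20 (AT1G78370), which binds the jasmonate-conjugating enzyme JAR1, held 12 and 6 reads under the wild type label and 0 and 1 under the plt1 plt2 label. Scaled by library size, the wild type label was 18.4-fold higher, with an exact 95% interval from 2.91 to 767 that covers counting error only. GSTU2 (AT2G29480) held 2 reads, both in plt1 plt2 1. GSTU20 lies directly beside GSTU19, and the coding sequences of these neighbours are 76.2% identical.

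GSTF9 (AT2G30860; TAIR10.1 chromosome 2, 13138882 to 13140392, plus strand) showed the largest difference of the family. This phi enzyme has glutathione peroxidase activity and is known from redox balance. Its level was 100.4 and 96.2 CPM under the wild type label and 39.5 and 36.9 CPM under the plt1 plt2 label, 2.57-fold lower (-1.36 ± 0.05, edgeR adjusted p = 2.1e-07). Both values under the plt1 plt2 label lay well below both under the wild type label. GSTF10 (AT2G30870; chromosome 2, 13141290 to 13142676, plus strand), also named ERD13, starts 0.9 kb after GSTF9 ends, and its coding sequence is 77.6% identical. GSTF10 was at 89.7 and 89.4 CPM against 77.1 and 78.3 CPM, 1.15-fold lower (-0.20 ± 0.04, edgeR adjusted p = 0.0127). Without wild type 1 or wild type 2 its adjusted p was 0.0733 or 0.0702. Per kb of exon the neighbours were at about the same level under the wild type label, with GSTF9 at 1.03 and 0.989 of GSTF10, and apart under the plt1 plt2 label, at 0.471 and 0.432.

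GSTF6 (AT1G02930), known for making the glutathione conjugate on the way to the phytoalexin camalexin, and GSTF7 (AT1G02920) are neighbours on chromosome 1 with coding sequences that are 94.3% identical, and both were higher under the plt1 plt2 label. GSTF6 was at 21.8 and 21.1 CPM against 28.1 and 27.5 CPM, 1.30-fold higher (0.37 ± 0.06, edgeR adjusted p = 0.00197). GSTF7 was at 37.0 and 30.4 CPM against 43.4 and 45.5 CPM, 1.32-fold higher (0.40 ± 0.08, edgeR adjusted p = 0.00995). Neither gene overlapped between the labels, and because 4.6% of the exon bases of GSTF6 match elsewhere at 95% identity, reads of the pair may not be fully separated. The ratio of GSTF6 to GSTF7 per kb of exon was 0.602 and 0.707 under the wild type label and 0.662 and 0.617 under the plt1 plt2 label, with overlap.

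The 250 bases before the annotated start of the neighbours GSTF9 and GSTF10 are shown, since these genes differed in the size of their change. The sequence is the TAIR10.1 reference of RefSeq, 5′ to 3′ on the strand of the gene, and no annotated gene overlaps these windows. Capitals mark matches on either strand to TGACG, the core that TGA factors bind, to TGTCTC, the auxin response element, to the palindrome CACGTG, the G-box, or to TATAAA, and each of these windows holds at most 1 match.
GSTF9, chr2:13138632-13138881, plus strand: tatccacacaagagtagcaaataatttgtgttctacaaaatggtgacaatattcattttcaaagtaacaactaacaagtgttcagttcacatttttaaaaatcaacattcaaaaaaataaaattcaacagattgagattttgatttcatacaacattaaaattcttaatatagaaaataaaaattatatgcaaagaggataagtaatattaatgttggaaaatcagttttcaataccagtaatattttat
GSTF10, chr2:13141040-13141289, plus strand: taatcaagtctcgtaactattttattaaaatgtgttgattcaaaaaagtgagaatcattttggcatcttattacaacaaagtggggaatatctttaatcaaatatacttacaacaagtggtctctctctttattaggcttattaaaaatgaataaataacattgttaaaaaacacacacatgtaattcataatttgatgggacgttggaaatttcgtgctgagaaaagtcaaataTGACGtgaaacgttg

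The window of GSTF10 held TGACG beginning 15 bases before the gene start, and none of the 4 motifs was found in the window of GSTF9, which says only that these letters are not in these bases. Aligned window to window, GSTF9 and GSTF10 shared 55.2% of bases. Across the family, TGACG occurred in 15 of 49 windows (30.6%), including 11 of 28 tau windows (39.3%) and 3 of 13 phi windows (23.1%), and in 18.6% of the 27443 windows of all protein-coding nuclear genes. TGTCTC occurred in 2 members (4.1%, against 10.9% of all genes), CACGTG in 4 (8.2%, against 6.5%) and TATAAA in 23 (46.9%, against 47.3%). Windows that reach into a neighbouring gene were counted too. The window of GSTU18, with CACGTG, lies within GSTU17, and that of GSTL3, with TGTCTC and CACGTG, lies almost wholly within GSTL1. Among called members, TGACG stood before GSTU5, GSTU6, GSTU11, GSTU24, GSTU25, GSTU27, GSTF3 and GSTF10, in both directions of change. It also stood before members that were not called, among them GSTU1, GSTU7, GSTU9 and GSTF8. Called members without it included GSTU19 and GSTF9, and whether the motif goes with a call was not tested.

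GSTF3 (AT2G02930) and GSTF14 (AT1G49860) were the other phi genes that were lower under the plt1 plt2 label. GSTF3 was at 6.16 and 8.09 CPM against 4.18 and 3.85 CPM, 1.77-fold lower (-0.83 ± 0.15, edgeR adjusted p = 0.00528, and 0.0580 without wild type 2). Its close copy GSTF2 (AT4G02520), known for binding camalexin and other indole compounds, was at 1.62 and 1.57 CPM against 1.31 and 1.04 CPM and was not called (-0.43 ± 0.23, edgeR adjusted p = 0.275). Their coding sequences are 94.5% identical, 24.7% of the exon bases of GSTF3 and 17.7% of those of GSTF2 match elsewhere, and 890 exon bases of GSTF2 lie opposite AT4G02510, a locus with 17147 to 20391 reads per library. The values of GSTF2 and GSTF3 are therefore uncertain. GSTF14, an atypical phi protein, was at 7.97 and 7.93 CPM against 5.05 and 5.92 CPM (-0.54 ± 0.11, edgeR adjusted p = 0.0127, and 0.0779 or 0.0758 without either wild type library). It lies 0.52 Mb from PLT2 on chromosome 1, and the part of that closeness in its value was not tested.

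GSTF8 (AT2G47730), a marker of early stress responses, was the most abundant phi gene and was not called. It was at 573 and 593 CPM against 629 and 538 CPM, with overlap (0.00 ± 0.07, edgeR adjusted p = 0.993), and 219 of its exon bases are shared with a locus on the same strand that had no row. GSTF8 and GSTF2 were the only tested phi genes not called. GSTF4 (AT1G02950) held 9 and 5 reads under the wild type label and 2 and 2 under the plt1 plt2 label, and GSTF12 (AT5G17220), the anthocyanin carrier also named TT19, held 8 and 1 against 4 and 7. GSTF5 (AT1G02940) held 2 reads, both in plt1 plt2 1. These 3 genes were too low to be tested.

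The zeta, theta and lambda genes had no call in edgeR with the filter on low counts and all 4 libraries. GSTZ1 (AT2G02390), the maleylacetoacetate isomerase, was at 55.9 and 53.1 CPM against 53.6 and 52.7 CPM (-0.04 ± 0.05, edgeR adjusted p = 0.698). GSTZ2 (AT2G02380), its neighbour, was at 0.291 and 0.545 CPM against 0.300 and 0.549 CPM (0.01 ± 0.46, edgeR adjusted p = 0.996). The zeta genes overlapped between the labels, and their coding sequences are 84.7% identical. Separately, 8.9% of the exon bases of GSTZ1 match elsewhere, where the gene matched is AT2G18480 and not GSTZ2.

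Among theta genes, GSTT1 (AT5G41210) was at 35.1 and 35.2 CPM against 32.9 and 33.2 CPM (-0.09 ± 0.05, edgeR adjusted p = 0.316). GSTT2 (AT5G41240) was at 23.3 and 24.8 CPM against 24.1 and 25.4 CPM (0.04 ± 0.06, edgeR adjusted p = 0.733). GSTT3 (AT5G41220) was at 22.2 and 23.6 CPM against 23.1 and 26.7 CPM (0.12 ± 0.07, edgeR adjusted p = 0.372, and 0.0445 without plt1 plt2 1). GSTT2 and GSTT3 overlapped between the labels and GSTT1 did not. Between 16.2% and 21.0% of the exon bases of each theta gene match elsewhere, and the coding sequences of GSTT2 and GSTT3 are 91.2% identical, so the division of reads among the 3 genes is uncertain.

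GSTL3 (AT5G02790), the most abundant lambda gene, was at 26.2 and 27.7 CPM against 27.5 and 26.4 CPM (0.00 ± 0.06, edgeR adjusted p = 0.982). GSTL2 (AT3G55040), whose protein is sent to plastids, was at 10.9 and 9.99 CPM against 10.9 CPM in both libraries labelled plt1 plt2 (0.06 ± 0.09, edgeR adjusted p = 0.724). GSTL1 (AT5G02780) was at 2.41 and 1.65 CPM against 3.30 and 2.88 CPM (0.60 ± 0.20, edgeR adjusted p = 0.0943). It was the lambda gene whose libraries did not overlap, and it passed the threshold with no filter on low counts (0.0424) and without plt1 plt2 2 (0.0125).

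In the genome, 36 of the 49 members stand in 12 tandem arrays, taken as members with gaps of at most 20 kb. Called members of opposite direction stood side by side in the array of GSTU1 to GSTU7 on chromosome 2. There GSTU6 was lower and GSTU5, the next member, was higher, and per kb of exon GSTU6 went from 0.273 and 0.300 of the level of GSTU5 under the wild type label to 0.156 and 0.143 under the plt1 plt2 label. These neighbours share 83.1% of their coding sequence. In the array of GSTU24 to GSTU26, GSTU24 and GSTU25 were lower and GSTU26 was not called. In the array of GSTU19 to GSTU23, GSTU19 was called, and GSTU22 and GSTU23 were not. GSTU20 in that array had too few reads to be tested, and GSTU21 had no row.

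**Figure D3:**
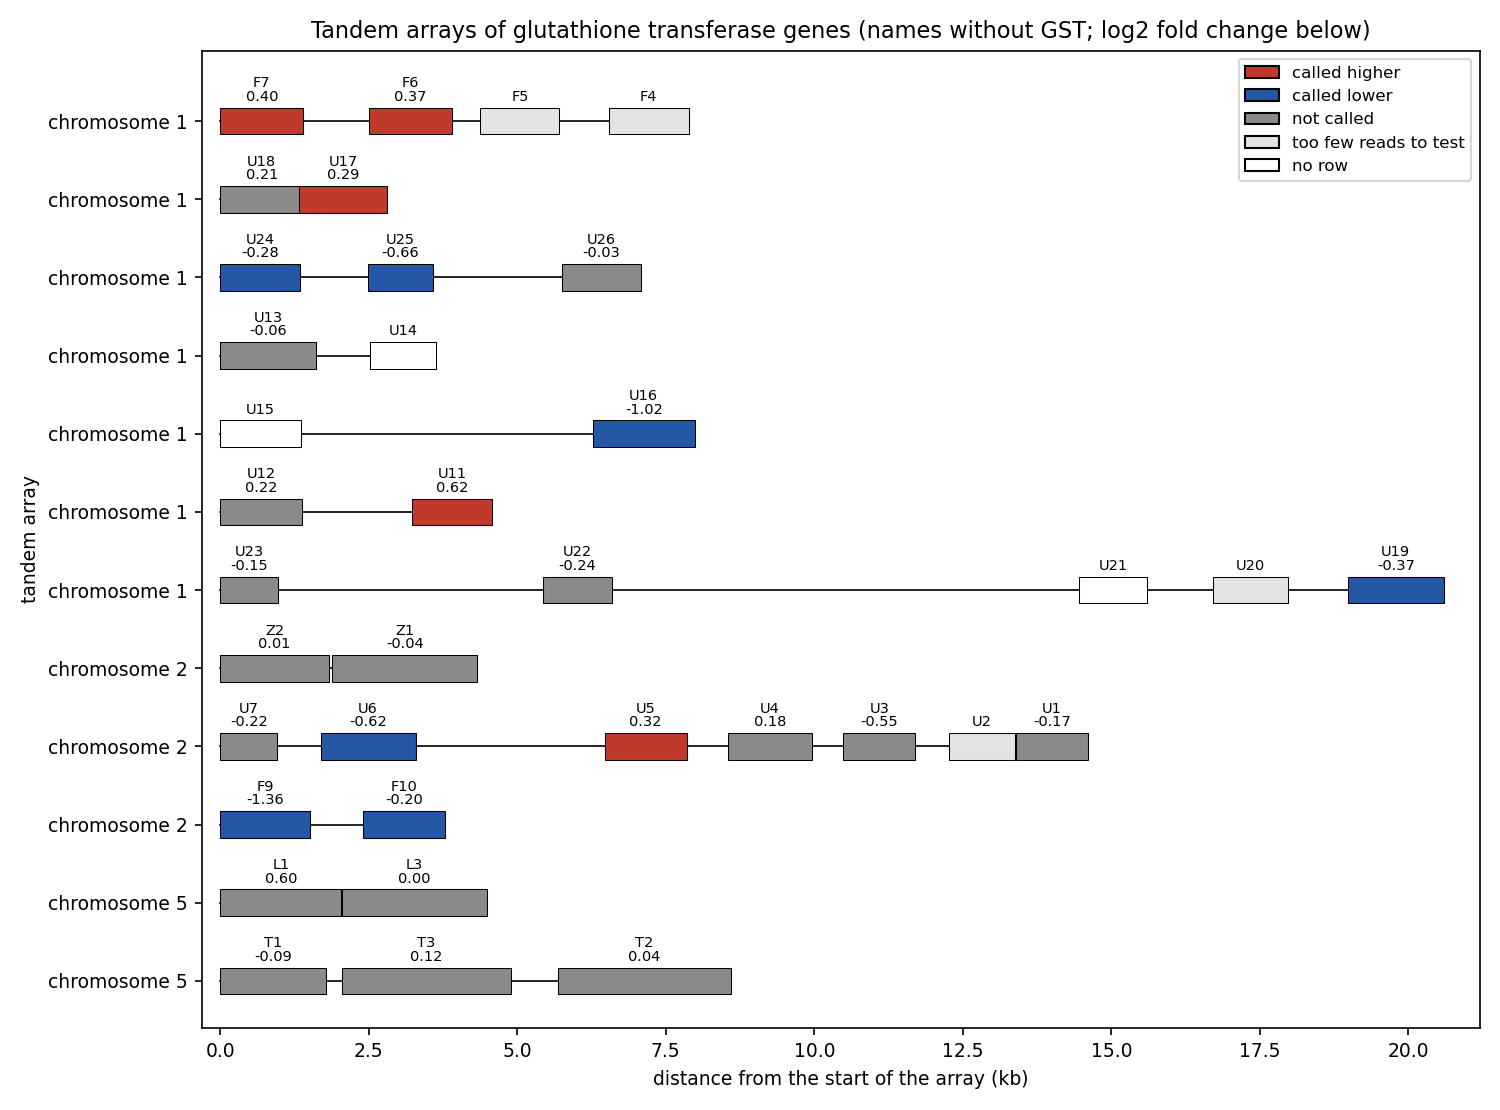
The 12 tandem arrays, drawn to scale as distance in kb from the start of each array, with each gene coloured by its call and its log2 fold change of plt1 plt2 over wild type printed under its name. GSTU6 (-0.62) and GSTU5 (0.32) are adjacent with opposite calls, and GSTF9 (-1.36) stands next to GSTF10 (-0.20).

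Genes that supply glutathione or act with these enzymes were read as lists, with counts and medians only. Beside these counts, 4.63% of all genes tested were called higher and 5.86% lower. Of 4 genes for glutathione synthesis and recycling, GSH1, the ligase for the first and limiting step of glutathione synthesis, was the only one called. GSH1 was at 101 and 105 CPM under the wild type label and at 73.2 and 77.0 CPM under the plt1 plt2 label, 1.37-fold lower (-0.46 ± 0.05, edgeR adjusted p = 0.00016). The list's median was 0.00. Of 4 genes of other soluble glutathione transferase classes, DHAR1, a cytosolic dehydroascorbate reductase, was the only one called, at 24.4 and 21.8 CPM against 15.5 and 16.8 CPM (-0.52 ± 0.07, edgeR adjusted p = 0.00151, list median -0.06).

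None of 8 glutathione peroxidases was called (median 0.00), nor of 5 tested genes for vacuolar transport and turnover of conjugates (median 0.09), nor of 4 genes for the TGA and SCL14 regulators (median 0.00), in edgeR or in DESeq2. At an unadjusted edgeR p below 0.05 these lists held 1 (GPX7), 2 (ABCC3 and GGT1) and 0 genes. The highest peroxidases per kb of exon were GPX6, at 159 and 175 CPM against 164 and 158 CPM (-0.05 ± 0.05), and GPX2, at 54.0 and 53.9 CPM against 60.3 and 48.8 CPM (0.02 ± 0.08). The vacuolar pumps ABCC2 (-0.03 ± 0.05) and ABCC1 (-0.04 ± 0.05) ran at 339 to 372 CPM and at 306 to 338 CPM. SCL14, a partner of TGA factors in detoxification, was at 47.5 to 50.4 CPM (0.03 ± 0.05) and TGA2 at 30.4 to 33.8 CPM (-0.10 ± 0.05).

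Among 8 xenobiotic response genes, 1 was called higher and 2 lower, against 4.63% and 5.86% of all genes tested. The list's median was 0.04. UGT74E2, which glucosylates indole-3-butyric acid, was at 11.3 and 12.5 CPM against 2.84 and 2.67 CPM, 4.31-fold lower (-2.11 ± 0.11, edgeR adjusted p = 1.61e-06). CYP81D11 was at 108 and 122 CPM against 89.2 and 77.1 CPM (-0.47 ± 0.07, edgeR adjusted p = 0.00274). AER, an alkenal reductase, was at 136 and 145 CPM against 186 and 175 CPM (0.36 ± 0.05, edgeR adjusted p = 0.00123). These 3 genes did not overlap between the labels, and the value of AER is uncertain, since 43.7% of its exon bases match elsewhere.

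Of the 3 genes for tyrosine breakdown beside the zeta enzymes, the homogentisate dioxygenase HGO was higher, at 20.5 and 20.2 CPM against 27.0 and 23.2 CPM (0.31 ± 0.08, edgeR adjusted p = 0.0270, and 0.102 to 0.130 when wild type 1, wild type 2 or the first plt1 plt2 library was left out). The list's median was 0.18. All 5 tested genes of the glucosinolate and camalexin list were called, 4 lower and 1 higher, against 10.5% of all genes tested. The median was -0.30, and CYP83A1, CYP71A13 and MYB28 of this list had no row. CYP83B1, which oxidises indole aldoxime toward indole glucosinolates, was at 48.4 and 44.7 CPM against 29.4 and 28.3 CPM (-0.69 ± 0.06, edgeR adjusted p = 3.68e-05). The regulator MYB34 held 349 and 266 reads against 0 in both libraries labelled plt1 plt2, at least 210-fold lower against a floor of 3 reads over the group. MYB34 was the gene of this list with no reads left, and the remaining members changed by less than CYP83B1. SUR1, the C-S lyase, was at 37.8 and 36.1 CPM against 30.8 and 29.4 CPM (-0.30 ± 0.05, edgeR adjusted p = 0.00601, and 0.0577 without wild type 1). GGP1, a peptidase that trims glutathione conjugates, was at 58.4 and 57.0 CPM against 48.3 and 51.5 CPM (-0.21 ± 0.05, edgeR adjusted p = 0.0227, and 0.0767 to 0.126 with the same libraries left out in turn). PAD3, the last enzyme of camalexin synthesis, was at 9.44 and 9.11 CPM against 12.8 and 11.5 CPM (0.39 ± 0.09, edgeR adjusted p = 0.0194, and 0.0777 or 0.124 without either wild type library). Among the anthocyanin partners of GSTF12, only DFR had a row, with 3 and 1 reads under the plt1 plt2 label and 0 under the wild type label.

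**Figure D4:**
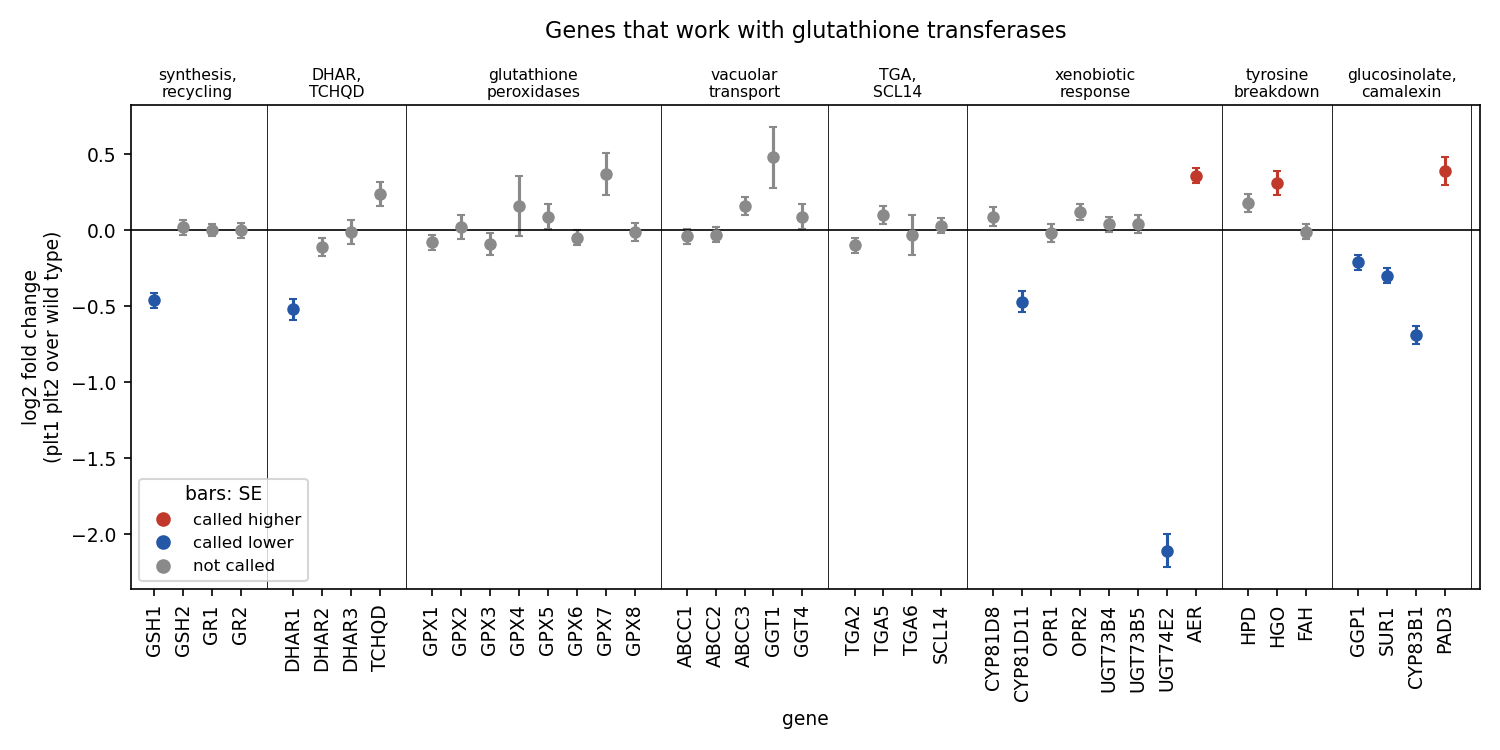
Log2 fold change of plt1 plt2 over wild type with its SE for the tested genes that work with glutathione transferases, by list. MYB34 is left out because it held 0 reads in both libraries labelled plt1 plt2. UGT74E2 lies lowest at -2.11, and no peroxidase, vacuolar transport or TGA and SCL14 gene was called.

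Markers of cell types also moved between the labels. All 4 root cap markers were lower under the plt1 plt2 label, against 5.86% of all genes tested. Their summed level was 57.6 to 62.4 CPM under the wild type label and 26.5 to 37.5 CPM under the plt1 plt2 label. Of 4 phloem markers, 3 were lower, against the same 5.86% of all genes. All 4 together summed to 8.11 to 9.34 CPM against 4.61 to 4.73 CPM. None of 3 tested xylem markers was called in edgeR or DESeq2, with 1 (CESA7) at an unadjusted edgeR p below 0.05. Summed over its 4 rows, the xylem list was at 12.9 to 13.5 CPM against 11.3 CPM in both. Of 6 callus and root founder markers, 4 were higher, against 4.63% of all genes tested, and 1 was lower (SCR, log2 fold change -0.37). Together the 6 summed to 1432 to 1464 CPM against 1581 to 1651 CPM. The root hair regulator RHD6 was higher. Of the other root hair markers, COBL9 held 3 and 0 reads against 5 and 3, too few to be tested, and EXPA7 had no row. Green tissue markers summed to 0.879 to 1.36 CPM, near 0 in every library. No marker with a row was at 0 reads in all libraries, and the part of these cell types in the values of the glutathione transferases was not tested.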

How the data were processed

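The authors deposited 1 table of raw read counts per gene, with 1 column for each of the 4 libraries, and these counts were used as deposited. The build was TAIR10 and the tools included STAR 2.7.2b, DESeq2 and Trim Galore 0.5.0, per the submitters' processing notes. How genes were counted, with which annotation and whether by strand is not given in the sources used here. Coordinates, exon lengths, coding identities and upstream windows are from the RefSeq annotation of TAIR10.1, with BLAST 2.17.0 and Biopython 1.88.

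Differences were tested with edgeR 4.0.16 in R 4.3.3, by glmQLFTest after glmQLFit on genotype alone, TMM scaling and filterByExpr, with Benjamini-Hochberg adjustment over 19325 genes, and called at an adjusted p below 0.05. CPM values use TMM-scaled library sizes, and CPM per kb divides by the union of annotated exons. The SE is the size of the log2 fold change over the square root of F. With 1 library left out, the lone library was assumed to vary like the other label. Libraries of the same label differed by more than counting error (chi-square per degree of freedom of 5.20 and 7.50) and counted as separate samples. These values do not show whether they came from separate cultures.

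The members and the lists were chosen with earlier results of these data known. Values in all libraries are given for each called member, for the 2 most abundant uncalled members per exon kb of each class, and for members whose call changed under an alternative; of each partner list, called genes are named, or the 2 most abundant per exon kb. The alternatives were a replicate block, DESeq2 1.42.0, RLE scaling, no filter, a mean of 50 or more reads, glmTreat against a fold of 1.5 and leaving out each library. No explanation was tested. The upstream sequence of 1 member is not reported here.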

Additional observations from a re-analysis of the deposited data

How the results depend on the processing

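Of the 16 called members, 9 kept their call and direction under every alternative other than glmTreat (GSTU5, GSTU6, GSTU8, GSTU16, GSTU19, GSTU25, GSTF6, GSTF7 and GSTF9), and 7 lost it in at least 1. Requiring more than a 1.5-fold difference (glmTreat) left 0 members higher and 1 lower, and 0 partner genes higher and 2 lower. Of all genes it left 198. Among the members it did not call, GSTU16 (2.03-fold lower) and GSTF3 (1.77-fold lower) had estimates above 1.5-fold. Leaving out each library in turn gave 3 to 7 members higher and 6 to 13 lower, 1 to 5 partner genes higher, and 1068 to 3026 genes in all, against 2027 with all 4 libraries; the lowest counts came without wild type 1 (3 members higher) and without wild type 2 (6 members lower). Sign changes occurred only for genes that were not called. Over the fits without 1 library, log2 fold changes ran from -0.58 to 0.06 for GSTU7, from -0.61 to 0.11 for GSTU9, from -0.16 to 0.02 for GSTU13, from -0.47 to 0.53 for GSTZ2, from -0.15 to 0.16 for GPX2, from -0.12 to 0.03 for GPX6, from -0.10 to 0.03 for ABCC1 and from -0.09 to 0.04 for ABCC2. The correlation of replicate deviations between the labels was -0.12 over the genes tested. With 2 libraries per label, this value cannot settle whether the replicate numbers pair the libraries. With the replicate block 5 members were higher, 11 lower and 1909 genes called in all. A crossed replicate block, chosen after seeing the data, called 6 members higher, 12 lower and 2340 genes in all. DESeq2 called 1597 genes, RLE scaling 2078, no filter 2489 and the filter at 50 reads 1944. With 2 libraries per label, small changes of low genes such as GSTU18, GSTU23 and GSTZ2 were not detectable at this depth.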
